A study of Mus musculus with 5 samples.

Results

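The cell cycle regulators examined here were 47 genes of the core cell cycle machinery of the mouse: cyclins, their kinases (CDKs) and kinase inhibitors, the E2F factors and the pocket proteins that bind them, the genes that license replication origins, regulators of mitotic entry, and the growth regulators Myc and Mycn. They were taken by symbol from a list of names, and all 47 were found among the 23951 genes of the deposited table. RNA sequencing was done on E14 mouse embryonic stem cells (ESCs, the naive state of pluripotency) and on epiblast stem cells (EpiSCs, the primed state), to follow bone morphogenetic protein 4 (BMP-4) in each. The 5 libraries were untreated EpiSCs, EpiSCs after 1.5 h and after 24 h of BMP-4 (10 ng/ml), ESCs grown in leukaemia inhibitory factor (LIF) plus BMP-4 (10 ng/ml) in a basal medium (BMP-4 ESCs), and ESCs grown in LIF plus serum (serum ESCs). All EpiSCs had been derived in culture from the ESCs, not from embryos, and were kept with Activin A and FGF2 in N2B27 medium on serum-coated plates, while ESCs were kept on gelatin. State, medium and growth factors therefore changed together, and their parts in a difference between EpiSCs and ESCs cannot be told apart.

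Every group was 1 library of 1 cell line, so no difference could be set against a spread between replicates and none has a p-value. Levels are FPKM (fragments per transcript length and sequencing depth), which allows levels of different genes to be compared per length. Differences are log2(FPKM + 1) of the group named first minus that of the group named second, and folds are ratios of FPKM + 1, which understate the change of low genes. "Called" means at least 2-fold on that scale among genes that averaged 1 FPKM or more. Bounds are the 95% limits deposited with each value, and they describe the estimate within a library, not the spread between cultures. In bulk RNA, fewer cells of a type and less RNA per cell cannot be told apart. The libraries held about 8.41 to 13.3 M reads, as estimated from the steps of low values, with the 24 h library the deepest. The 8 naive pluripotency markers summed to 2.55 to 4.61 FPKM in EpiSCs and 1464 to 1675 FPKM in ESCs, with Nr0b1 and Prdm14 listed at 0 in all EpiSC libraries. The 8 primed markers summed to 463 to 687 FPKM in EpiSCs and 80.8 to 85.2 FPKM in ESCs, so by these sums the states matched their labels. Most of the primed sum was Dnmt3b. After 24 h of BMP-4, 4 of the 8 were called lower than in untreated EpiSCs, and 2 were higher but not called. Cer1 went from 35.0 to 1.31 FPKM and Otx2 from 30.1 to 8.21 FPKM. Sox3, at 1.60 FPKM after 24 h, was level with BMP-4 ESCs (1.61 FPKM).

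A cell commits to divide in G1, when D-type cyclins with Cdk4 or Cdk6, and then E-type cyclins with Cdk2, phosphorylate the pocket proteins Rb1, Rbl1 and Rbl2 and release E2F factors, which switch on genes for DNA replication. Inhibitors of the Ink4 group (Cdkn2a to Cdkn2d) and of the Cip/Kip group (such as Cdkn1b) restrain these kinases. Pluripotent stem cells of the mouse are known for a short G1, high cyclin E activity and low levels of Ink4 inhibitors, and Myc and Mycn, which drive growth and proliferation, are known to sustain their self-renewal.

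In these libraries E2f6 and Rb1 were at least 2-fold higher in untreated EpiSCs than in either ESC library, and E2f2, Rbl2 and Cdt1 were at least 2-fold lower. Of these 3, E2f2 and Rbl2 were below 1 FPKM in EpiSCs and passed the filter through their ESC levels alone, and the Cdt1 calls ended when the libraries were rescaled. The Rb1 calls ended with a pseudocount of 5 FPKM in place of 1, unlike those of E2f6. Of all genes, 11.6% were called higher and 9.55% lower against serum ESCs, and 11.0% and 10.0% against BMP-4 ESCs. Most licensing and mitotic genes were lower in EpiSCs by less than 2-fold. After 24 h of BMP-4, Ccnd2 was the 1 member at least 2-fold away from untreated EpiSCs, where 0.654% of all genes were higher and 0.527% lower. It was a low gene, with 1.89 FPKM in untreated EpiSCs, and its call ended with a pseudocount of 5 FPKM in place of 1.

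Many of these genes are known E2F targets, so a few promoters are shown before the values, with the words that E2F factors bind. The 250 bases before the RefSeq transcription start (build GRCm38.p6, while the deposited table uses mm9) were found for 34 of the 47 members. They were searched on both strands for the words TTTCGCGC, TTTCCCGC, TTTGGCGC and TTTGCCGC, which E2F factors are known to bind. At least 1 word was present in 12 of these 34 members (35.3%), against 583 of 27025 genes with a promoter in the table (2.16%) and 357 of 8337 genes that also averaged 1 FPKM or more (4.28%). The 12 were Cdk2, Cdkn2a, E2f3, E2f7, Rbl1, Mcm5, Mcm6, Mcm7, Cdc6, Cdk1, Cdc25a and Mycn. Below, Mcm6, Cdc6, Cdk1 and Mycn are shown as members that hold a word, which was not the rule for their roles. A word was present in 4 of 7 licensing members with a window (Mcm5, Mcm6, Mcm7 and Cdc6). Of 3 mitotic cyclin and Cdk1 members with a window, Cdk1 alone held a word, and Myc had no window. E2f6 is the member called higher in EpiSCs against both ESC libraries by the widest margin and holds none of these words. Each window shown is written 5′ to 3′ on the gene's strand and ends at the base before the transcription start, with the E2F words, or their reverse complements, in capitals. Mcm6 and Mycn each have 3 matches, of which a pair on opposite strands overlaps to make the longer run of capitals. For Mcm6 the start was not seen in a GENCODE transcript, unlike the other 4.
Mcm6 (chr1:128359706-128359955, minus strand): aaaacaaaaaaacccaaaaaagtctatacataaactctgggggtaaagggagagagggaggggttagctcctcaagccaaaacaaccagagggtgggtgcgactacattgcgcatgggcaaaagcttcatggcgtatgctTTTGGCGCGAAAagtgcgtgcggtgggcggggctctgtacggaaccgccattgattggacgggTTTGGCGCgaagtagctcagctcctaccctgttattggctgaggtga
Cdc6 (chr11:98907901-98908150, plus strand): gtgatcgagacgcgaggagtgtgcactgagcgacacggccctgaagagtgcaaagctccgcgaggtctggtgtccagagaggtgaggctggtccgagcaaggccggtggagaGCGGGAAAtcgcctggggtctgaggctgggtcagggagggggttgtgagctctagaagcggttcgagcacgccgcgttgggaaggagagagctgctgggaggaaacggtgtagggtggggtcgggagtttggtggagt
Cdk1 (chr10:69352913-69353162, minus strand): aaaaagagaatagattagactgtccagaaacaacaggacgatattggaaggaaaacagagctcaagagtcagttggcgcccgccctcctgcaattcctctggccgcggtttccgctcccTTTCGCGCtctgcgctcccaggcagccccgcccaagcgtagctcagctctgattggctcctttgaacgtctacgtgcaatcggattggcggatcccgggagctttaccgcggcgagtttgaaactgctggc
Mycn (chr12:12941837-12942086, minus strand): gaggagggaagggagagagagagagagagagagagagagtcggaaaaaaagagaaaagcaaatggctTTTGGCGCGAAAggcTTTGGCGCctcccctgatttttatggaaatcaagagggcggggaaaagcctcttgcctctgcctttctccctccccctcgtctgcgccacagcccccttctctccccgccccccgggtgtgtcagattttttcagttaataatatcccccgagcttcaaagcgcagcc
E2f6 (chr12:16810715-16810964, plus strand): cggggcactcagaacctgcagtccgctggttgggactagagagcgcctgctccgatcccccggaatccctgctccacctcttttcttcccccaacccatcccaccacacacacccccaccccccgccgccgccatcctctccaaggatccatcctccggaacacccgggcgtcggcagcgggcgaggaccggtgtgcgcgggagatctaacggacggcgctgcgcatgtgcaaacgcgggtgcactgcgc

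Other words were searched in the same way in these windows. CCAAT, bound by NF-Y, was present in 20 of 34 members (58.8%), against 37.5% of all genes and 41.5% of those averaging 1 FPKM or more. TTTGAA, the core of the cell cycle homology region found at many G2 and M genes, was present in 9 members (26.5%), against 18.3% and 12.1%. CACGTG, the E-box bound by Myc with Max, was present in 3 members (8.82%), against 6.86% and 10.3%. A word in a window is a description of its letters, and no binding was measured here.

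Of the 47 members, 44 averaged at least 1 FPKM and entered the comparisons. The 3 left out were the Ink4 inhibitors Cdkn2b, Cdkn2c and Cdkn2d. Some of the 44 passed mainly through 1 state: E2f2 was below 1 FPKM in all EpiSC libraries, as was Rbl2, so their ESC levels alone carried them over the filter. The set ran from well under 1 FPKM for Rbl2 in untreated EpiSCs to 460.0 FPKM for Mcm7 in serum ESCs.

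D-type cyclins couple growth factor signals to the cycle. Ccnd3 (chr17:47642000-47748441) had 27.1 FPKM in untreated EpiSCs, 27.0 after 1.5 h and 27.8 after 24 h of BMP-4, against 50.8 in BMP-4 ESCs and 77.9 in serum ESCs. It was below both ESC libraries in all 3 EpiSC libraries and hardly moved with BMP-4. In untreated EpiSCs it was 2.81-fold lower than in serum ESCs, second only to E2f2 among the members. It was 1.85-fold lower than in BMP-4 ESCs, which was not called. The deposited bounds overlapped, with 2.85 to 51.3 FPKM in untreated EpiSCs and 28.7 to 127 FPKM in serum ESCs. The Ccnd3 locus overlaps Bysl, which had 21.8 FPKM in untreated EpiSCs and 30.7 FPKM in serum ESCs, and a processed pseudogene, Ccnd3-ps, matches 881 bases of its transcript at 96.3% identity, so reads could be split between them.

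Ccnd1 (chr7:152115836-152125830) had 32.2 FPKM in untreated EpiSCs, 35.6 after 1.5 h and 32.4 after 24 h of BMP-4, against 27.6 in BMP-4 ESCs and 39.8 in serum ESCs. The ESC values lay on either side of the EpiSC values, so Ccnd1 did not separate the states. Together the D-type cyclins summed to 61.1, 65.1 and 67.4 FPKM in EpiSCs at 0, 1.5 and 24 h of BMP-4, and to 79.2 FPKM in BMP-4 ESCs and 119 FPKM in serum ESCs. Ccnd1 made up 48.1% to 54.7% of that sum in EpiSCs and 33.4% to 34.9% in ESCs. Ccnd3 made up 41.3% to 44.3% in EpiSCs and 64.1% to 65.3% in ESCs. The leading D-type cyclin by FPKM was thus Ccnd1 in every EpiSC library and Ccnd3 in both ESC libraries, although the deposited bounds are wide enough to allow either order in each library.

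Ccnd2 (chr6:127075727-127162437) was the least abundant D-type cyclin, with 1.89 FPKM in untreated EpiSCs, 2.51 after 1.5 h and 7.12 after 24 h of BMP-4, against 0.780 in BMP-4 ESCs and 1.48 in serum ESCs. The 24 h library stood above all others, and the other EpiSC libraries were above both ESC libraries, by less than 2-fold on the scale used here. Against untreated EpiSCs, Ccnd2 was 2.81-fold higher after 24 h of BMP-4, a log2 difference of 1.49. Against 1.5 h it was 2.31-fold higher after 24 h. The bounds overlapped, with 2.35 to 11.9 FPKM after 24 h and 0.156 to 3.63 FPKM in untreated EpiSCs. Its share of the D-type cyclin sum was 10.6% after 24 h, 3.85% after 1.5 h and 3.09% in untreated EpiSCs. The locus overlaps 9330179D12Rik, which is listed at 0 in all 5 libraries. Markers of primitive streak and mesoderm also had a higher sum at 24 h, but not at 1.5 h. The 8 listed genes summed to 149 FPKM after 24 h, 34.7 FPKM after 1.5 h and 40.5 FPKM in untreated EpiSCs. After 24 h 0 of them were listed at 0, against 1 in each of the others (Tbx6 at 1.5 h, Mesp1 in untreated cells). T alone had 89.2 FPKM after 24 h and 11.9 FPKM in untreated EpiSCs, while Tbx6 and Hand1 stayed below 1 FPKM. The 6 trophoblast markers, which share Cdx2 and Eomes with that list, summed to 56.9 FPKM after 24 h and 37.0 FPKM in untreated EpiSCs. The part of these markers in the Ccnd2 difference was not tested. Both Ccnd2 calls ended with a pseudocount of 5 FPKM in place of 1.

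**Figure D1:**
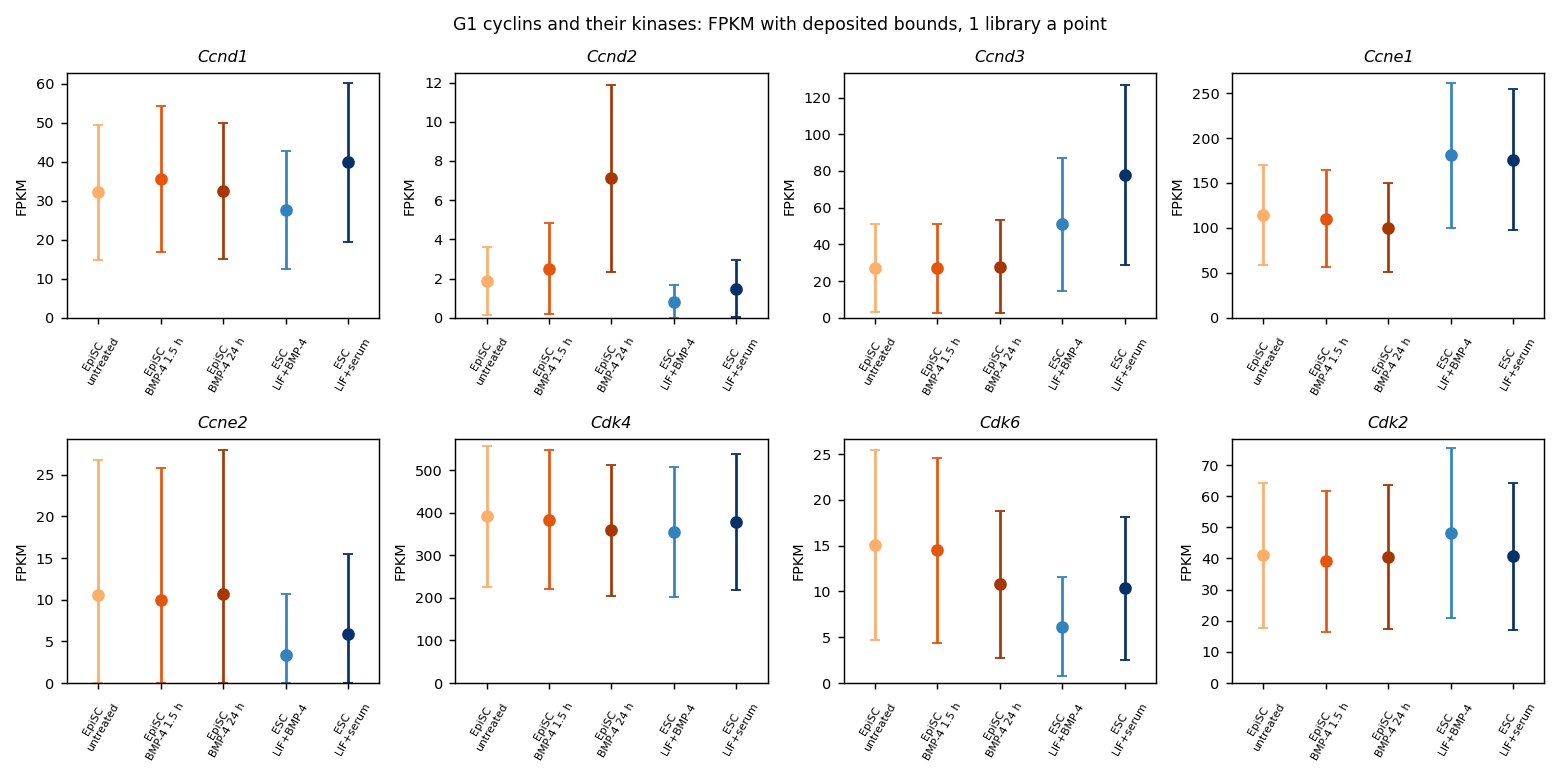
FPKM of G1 cyclins and their kinases (vertical axes, each from 0) in the 5 libraries, with points for the deposited values and bars for the deposited bounds. Ccnd2 stands at 7.12 FPKM in the 24 h library, against at most 2.51 FPKM elsewhere, and Ccnd3 at 27.0 to 27.8 FPKM in EpiSCs, against 50.8 and 77.9 FPKM in ESCs.

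E-type cyclins act with Cdk2 at the entry to S phase. Ccne1 (chr7:38883003-38892509) was the most abundant G1 cyclin in all 5 libraries, with 114 FPKM in untreated EpiSCs, 110.4 after 1.5 h and 100.4 after 24 h of BMP-4, against 181 in BMP-4 ESCs and 176 in serum ESCs. All EpiSC values were below both ESC values, by 1.53-fold between the nearest libraries, which is under the 2-fold limit. Ccne2 (chr4:11118498-11181406) ran the other way, with 10.5, 10.0 and 10.7 FPKM in EpiSCs at 0, 1.5 and 24 h of BMP-4, and 3.38 and 5.91 FPKM in BMP-4 ESCs and in serum ESCs. It was 2.64-fold higher in untreated EpiSCs than in BMP-4 ESCs, and 1.67-fold higher than in serum ESCs, but every lower bound of Ccne2 was 0, and the locus overlaps Ints8. The call against BMP-4 ESCs therefore rests on a loose estimate. Ccne1 formed 90.4% to 91.7% of the E-type sum in EpiSCs and 96.7% to 98.2% in ESCs.

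Of the G1 kinases, Cdk4 and Cdk2 varied less between libraries than Cdk6. Cdk4, a partner of D-type cyclins, had 391, 384 and 358 FPKM in EpiSCs at 0, 1.5 and 24 h of BMP-4, and 354 and 378 FPKM in BMP-4 ESCs and in serum ESCs. Cdk2, the partner of E-type cyclins, had 41.0, 39.2 and 40.4 FPKM in EpiSCs at 0, 1.5 and 24 h of BMP-4, and 48.2 and 40.7 FPKM in BMP-4 ESCs and in serum ESCs. Neither gene separated the states. Cdk6 (chr5:3344312-3522225), the other partner of D-type cyclins, had 15.1 FPKM in untreated EpiSCs, 14.5 after 1.5 h and 10.8 after 24 h of BMP-4, against 6.17 in BMP-4 ESCs and 10.4 in serum ESCs. It was lowest in BMP-4 ESCs, and untreated EpiSCs were 2.24-fold higher than these, with overlapping bounds. After 24 h of BMP-4 the Cdk6 value was close to that of serum ESCs. The ratio of Cdk4 to Cdk6 FPKM was 25.9 in untreated EpiSCs, 26.5 after 1.5 h and 33.2 after 24 h, and it was 57.4 in BMP-4 ESCs and 36.5 in serum ESCs.

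Among the inhibitors, Cdkn1b (p27, of the Cip/Kip group) was the most abundant member, with 18.2 FPKM in untreated EpiSCs, 20.1 after 1.5 h and 15.7 after 24 h of BMP-4, against 10.2 in BMP-4 ESCs and 15.8 in serum ESCs. The 24 h value and that of serum ESCs were nearly equal, so the states overlapped. Cdkn2a (the Ink4a and Arf locus) had 1.70 FPKM in untreated EpiSCs, 2.22 after 1.5 h and 1.92 after 24 h of BMP-4, against 4.59 in BMP-4 ESCs and 1.96 in serum ESCs. BMP-4 ESCs stood apart from the other 4 libraries, and untreated EpiSCs were 2.07-fold lower than these, though every lower bound was 0. Cdkn2b had 0.873, 0.355 and 0.525 FPKM in EpiSCs at 0, 1.5 and 24 h of BMP-4, and 0.349 and 0.458 FPKM in BMP-4 ESCs and in serum ESCs. Cdkn2d had 0.0885 to 0.586 FPKM in EpiSCs and 0.307 to 0.487 FPKM in ESCs. Cdkn2c was between 0.0937 and 0.461 FPKM where it had a value and listed at 0 after 24 h of BMP-4. One read on a transcript of 1500 nt is worth about 0.0500 to 0.0792 FPKM in these libraries, so the Ink4 inhibitors other than Cdkn2a rested on few reads and no fold is given for them. The ratio of Cdkn1b to all D-type cyclins was 0.298, 0.308 and 0.233 in EpiSCs at 0, 1.5 and 24 h of BMP-4, and 0.128 and 0.133 in BMP-4 ESCs and serum ESCs.

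E2f6 and E2f2 held the largest differences between states among the members, while other E2F factors differed less or, like E2f4, did not separate the states. E2f2 was below 1 FPKM in all EpiSC libraries, and its calls ended with a pseudocount of 5 FPKM in place of 1. E2f6 (chr12:16817771-16833558), a repressor that acts without pocket proteins, had 54.2 FPKM in untreated EpiSCs, 52.9 after 1.5 h and 51.0 after 24 h of BMP-4, against 17.2 in BMP-4 ESCs and 16.7 in serum ESCs. All EpiSC values were at least 2.86-fold above both ESC values, the widest gap of any member. Untreated EpiSCs were 3.12-fold higher than serum ESCs, where the bounds met only between 25.1 and 28.5 FPKM, and 3.03-fold higher than BMP-4 ESCs. E2f5 (chr3:14578671-14611256), which represses together with pocket proteins, had 50.7 FPKM in untreated EpiSCs, 44.7 after 1.5 h and 42.9 after 24 h of BMP-4, against 24.8 in BMP-4 ESCs and 26.5 in serum ESCs. All EpiSC values lay above both ESC values, and against BMP-4 ESCs the difference just reached 2-fold (log2 1.00).

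E2f2 (chr4:135728309-135751971), an activator, went in the opposite direction, with 0.539 FPKM in untreated EpiSCs, 0.742 after 1.5 h and 0.824 after 24 h of BMP-4, against 3.29 in BMP-4 ESCs and 3.35 in serum ESCs. Both ESC libraries were at least 2.35-fold above every EpiSC library, and untreated EpiSCs were 2.83-fold lower than serum ESCs. E2f1, another activator, had 6.50, 6.97 and 6.97 FPKM in EpiSCs at 0, 1.5 and 24 h of BMP-4, and 12.6 and 9.25 FPKM in BMP-4 ESCs and in serum ESCs, also below both ESC values in all EpiSC libraries but by 1.29-fold between the nearest. The third activator, E2f3, had 10.3, 10.4 and 11.8 FPKM in EpiSCs at 0, 1.5 and 24 h of BMP-4, and 7.54 and 8.52 FPKM in BMP-4 ESCs and in serum ESCs, slightly above both ESC values. Thus the 3 activators did not share a direction. E2f4, the most abundant E2F, which works with pocket proteins, had 169, 168 and 159 FPKM in EpiSCs at 0, 1.5 and 24 h of BMP-4, and 152 and 170.4 FPKM in BMP-4 ESCs and in serum ESCs, and did not separate the states. The atypical repressors E2f7 and E2f8 split, with EpiSC values above both ESC values for E2f7 and below them for E2f8. E2f7 had 7.56, 8.15 and 8.98 FPKM in EpiSCs at 0, 1.5 and 24 h of BMP-4, and 3.65 and 4.24 FPKM in BMP-4 ESCs and in serum ESCs. E2f8 had 12.6, 12.6 and 10.8 FPKM in EpiSCs at 0, 1.5 and 24 h of BMP-4, and 15.8 and 17.6 FPKM in BMP-4 ESCs and in serum ESCs. E2f4 made up 54.3% to 55.2% of the summed E2F FPKM in EpiSCs and 64.2% to 66.4% in ESCs, and E2f6 made up 17.3% to 17.5% in EpiSCs and 6.51% to 7.25% in ESCs.

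The pocket proteins also went in different directions. Rb1 (chr14:73595309-73725598), the retinoblastoma protein, had 6.08 FPKM in untreated EpiSCs, 5.61 after 1.5 h and 4.58 after 24 h of BMP-4, against 2.11 in BMP-4 ESCs and 2.31 in serum ESCs. It was 2.14-fold higher in untreated EpiSCs than in serum ESCs and 2.28-fold higher than in BMP-4 ESCs, and all EpiSC libraries were above both ESC libraries. The bounds overlapped, with 1.01 to 11.1 FPKM in untreated EpiSCs and 0 to 4.68 FPKM in serum ESCs. Both Rb1 calls ended with a pseudocount of 5 FPKM in place of 1. Lpar6, which lies inside the Rb1 locus, had 7.48 FPKM in untreated EpiSCs, against 0.640 FPKM in BMP-4 ESCs and 2.40 FPKM in serum ESCs, and its part in the Rb1 difference was not tested. Rbl2 (chr8:93593956-93659395) had 0.409, 0.553 and 0.844 FPKM in EpiSCs at 0, 1.5 and 24 h of BMP-4, and 1.86 and 2.02 FPKM in BMP-4 ESCs and in serum ESCs. Its ESC values were both higher, and it was 2.15-fold lower in untreated EpiSCs than in serum ESCs, at levels near the filter. The loci of Rbl2 and E2f5 overlap Aktip and 1810022K09Rik, and the counting is not stated to use strand. Rbl1 had 7.62, 6.89 and 8.49 FPKM in EpiSCs at 0, 1.5 and 24 h of BMP-4, and 10.7 and 7.79 FPKM in BMP-4 ESCs and in serum ESCs, with the states overlapping. Rb1 made up 32.9% to 43.1% of the pocket protein sum in EpiSCs and 14.4% to 19.0% in ESCs, and Rbl2 made up 2.90% to 6.06% in EpiSCs and 12.7% to 16.7% in ESCs. The deposited bounds are wide enough for either share to overlap between the states.

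**Figure D2:**
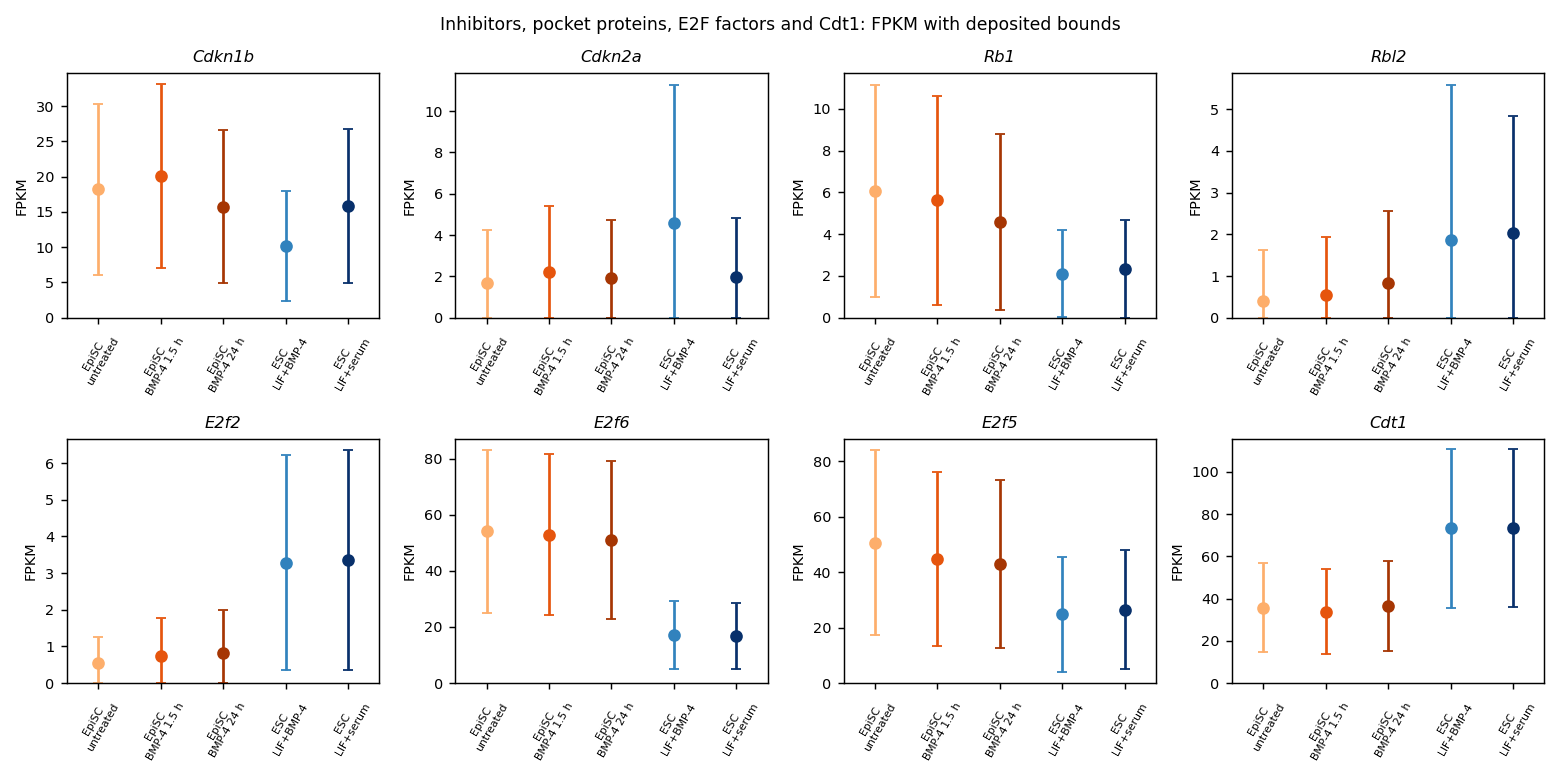
FPKM of inhibitors, pocket proteins, E2F factors and Cdt1 (vertical axes, each from 0) in the 5 libraries, with points for the deposited values and bars for the deposited bounds. E2f6 lies at 51.0 to 54.2 FPKM in EpiSCs, against 16.7 and 17.2 FPKM in ESCs, while E2f2 lies at 0.539 to 0.824 FPKM in EpiSCs, against 3.29 and 3.35 FPKM in ESCs.

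Licensing genes load the MCM helicase onto origins in G1. Cdt1 (chr8:125091915-125097030), the loading factor, had 35.7 FPKM in untreated EpiSCs, 33.8 after 1.5 h and 36.5 after 24 h of BMP-4, against 73.2 in BMP-4 ESCs and 73.4 in serum ESCs. All EpiSC values were below both ESC values by 1.98-fold or more. Untreated EpiSCs were 2.03-fold lower than serum ESCs, with bounds of 14.6 to 56.7 FPKM in untreated EpiSCs and 35.8 to 111 FPKM in serum ESCs. Rescaling all libraries to the same sum, or by the median ratio, ended the call against either ESC library. Gmnn (geminin), the inhibitor of Cdt1, was also lower in EpiSCs, with 179.5, 177 and 186 FPKM in EpiSCs at 0, 1.5 and 24 h of BMP-4, and 267 and 254 FPKM in BMP-4 ESCs and in serum ESCs. The ratio of Gmnn to Cdt1 was 5.03 to 5.22 in EpiSCs and 3.46 to 3.65 in ESCs. Cdc6, which loads MCMs with Cdt1 and carries an E2F word in the promoter shown, had 25.7, 22.6 and 23.8 FPKM in EpiSCs at 0, 1.5 and 24 h of BMP-4, and 33.2 and 36.5 FPKM in BMP-4 ESCs and in serum ESCs.

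The helicase subunits were among the most abundant members. Mcm7 had 352, 360.0 and 359 FPKM in EpiSCs at 0, 1.5 and 24 h of BMP-4, and 447 and 460.0 FPKM in BMP-4 ESCs and in serum ESCs. Mcm3 had 170.0, 168 and 172 FPKM in EpiSCs at 0, 1.5 and 24 h of BMP-4, and 244 and 253 FPKM in BMP-4 ESCs and in serum ESCs. Both were lower in all EpiSC libraries than in both ESC libraries, and so were the next 3. Mcm5 had 122, 120.4 and 118 FPKM in EpiSCs at 0, 1.5 and 24 h of BMP-4, and 175 and 189 FPKM in BMP-4 ESCs and in serum ESCs. Mcm6, whose promoter holds 3 E2F matches, had 123, 124 and 132 FPKM in EpiSCs at 0, 1.5 and 24 h of BMP-4, and 184 and 161 FPKM in BMP-4 ESCs and in serum ESCs. Mcm2 had 130.3, 125 and 117 FPKM in EpiSCs at 0, 1.5 and 24 h of BMP-4, and 159 and 150.0 FPKM in BMP-4 ESCs and in serum ESCs. The exception was Mcm4, with 98.7, 95.2 and 103 FPKM in EpiSCs at 0, 1.5 and 24 h of BMP-4, and 99.1 and 121 FPKM in BMP-4 ESCs and in serum ESCs, where the EpiSC values at 0 and 1.5 h were below both ESC values and the 24 h value was between them. The 6 subunits summed to 996, 993 and 1001 FPKM in EpiSCs at 0, 1.5 and 24 h of BMP-4, and to 1308 and 1333 FPKM in BMP-4 ESCs and serum ESCs. A pseudogene, Gm5487, matches 72.8% of the Mcm7 transcript, and another, Gm9430, matches 33.1% of that of Cdc6, so both levels are uncertain.

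The mitotic cyclins and their kinase were below both ESC values in every EpiSC library, though none by 2-fold. Ccnb1, the cyclin of the mitotic kinase Cdk1, had 151, 150.3 and 147 FPKM in EpiSCs at 0, 1.5 and 24 h of BMP-4, and 212 and 229.8 FPKM in BMP-4 ESCs and in serum ESCs. Ccnb2, its close relative, had 79.3, 78.7 and 86.0 FPKM in EpiSCs at 0, 1.5 and 24 h of BMP-4, and 98.5 and 107 FPKM in BMP-4 ESCs and in serum ESCs. Ccna2, the cyclin of S phase and G2, had 43.6, 42.6 and 39.1 FPKM in EpiSCs at 0, 1.5 and 24 h of BMP-4, and 45.5 and 58.6 FPKM in BMP-4 ESCs and in serum ESCs, where untreated EpiSCs and BMP-4 ESCs were nearly level. Cdk1 had 109, 111 and 109 FPKM in EpiSCs at 0, 1.5 and 24 h of BMP-4, and 131 and 143 FPKM in BMP-4 ESCs and in serum ESCs. These 4 genes had a median log2 difference of -0.42 between untreated EpiSCs and serum ESCs and of -0.29 against BMP-4 ESCs. The Ccna2 locus overlaps Exosc9, and Ccnb1 has processed pseudogenes, 3 of which match at least 51.7% of its transcript.

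Regulators of mitotic entry and checkpoints were more mixed. Chek1, a kinase of the replication checkpoint, had 20.8, 20.6 and 19.1 FPKM in EpiSCs at 0, 1.5 and 24 h of BMP-4, and 38.8 and 36.8 FPKM in BMP-4 ESCs and in serum ESCs, the widest gap among them, with the nearest libraries 1.74-fold apart. Aurka, a kinase of the spindle poles, had 75.0, 74.7 and 67.9 FPKM in EpiSCs at 0, 1.5 and 24 h of BMP-4, and 104 and 111 FPKM in BMP-4 ESCs and in serum ESCs, and was also below both ESC values in EpiSCs. Its relative Aurkb, of the chromosomal passenger complex, had 45.3, 44.2 and 42.4 FPKM in EpiSCs at 0, 1.5 and 24 h of BMP-4, and 38.0 and 37.0 FPKM in BMP-4 ESCs and in serum ESCs, and was above both. Among the Cdc25 phosphatases, which activate CDKs, Cdc25a had 31.4 to 33.6 FPKM in EpiSCs and 37.4 FPKM in both ESC libraries. Cdc25c went the other way, with 12.5 to 15.1 FPKM in EpiSCs and 9.77 to 10.3 FPKM in ESCs. Cdc25b had 14.8 to 15.1 FPKM in EpiSCs, between the values of 15.6 FPKM in BMP-4 ESCs and 11.6 FPKM in serum ESCs. Wee1, which opposes them, had 15.5 to 15.7 FPKM in EpiSCs, against 22.9 FPKM in BMP-4 ESCs and 17.1 FPKM in serum ESCs. Plk1, a kinase that promotes mitosis, had 42.1 to 42.6 FPKM in EpiSCs, just below 43.5 FPKM in BMP-4 ESCs, and below 56.4 FPKM in serum ESCs.

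Myc and Mycn are related transcription factors that drive growth genes, and Myc had the higher level in EpiSCs and Mycn in ESCs. Myc (chr15:61816896-61821916) had 38.9 FPKM in untreated EpiSCs, 33.2 after 1.5 h and 33.7 after 24 h of BMP-4, against 16.9 in BMP-4 ESCs and 28.3 in serum ESCs. All EpiSC values were above both ESC values, most of all against BMP-4 ESCs, where untreated EpiSCs were 2.24-fold higher. The bounds overlapped, with 16.6 to 61.3 FPKM in untreated EpiSCs and 4.87 to 28.8 FPKM in BMP-4 ESCs. Mycn (chr12:12942899-12948642) had 28.6 FPKM in untreated EpiSCs, 22.6 after 1.5 h and 22.0 after 24 h of BMP-4, against 36.4 in BMP-4 ESCs and 34.9 in serum ESCs, with all EpiSC values below both ESC values and no call. Myc was 57.6% to 60.4% of the sum of both genes in EpiSCs, against 31.6% in BMP-4 ESCs and 44.7% in serum ESCs. That sum was 67.6 FPKM in untreated EpiSCs, 55.8 FPKM after 1.5 h and 55.7 FPKM after 24 h of BMP-4, and 53.3 and 63.2 FPKM in BMP-4 ESCs and serum ESCs. The bounds again allow either gene to lead in each library.

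**Figure D3:**
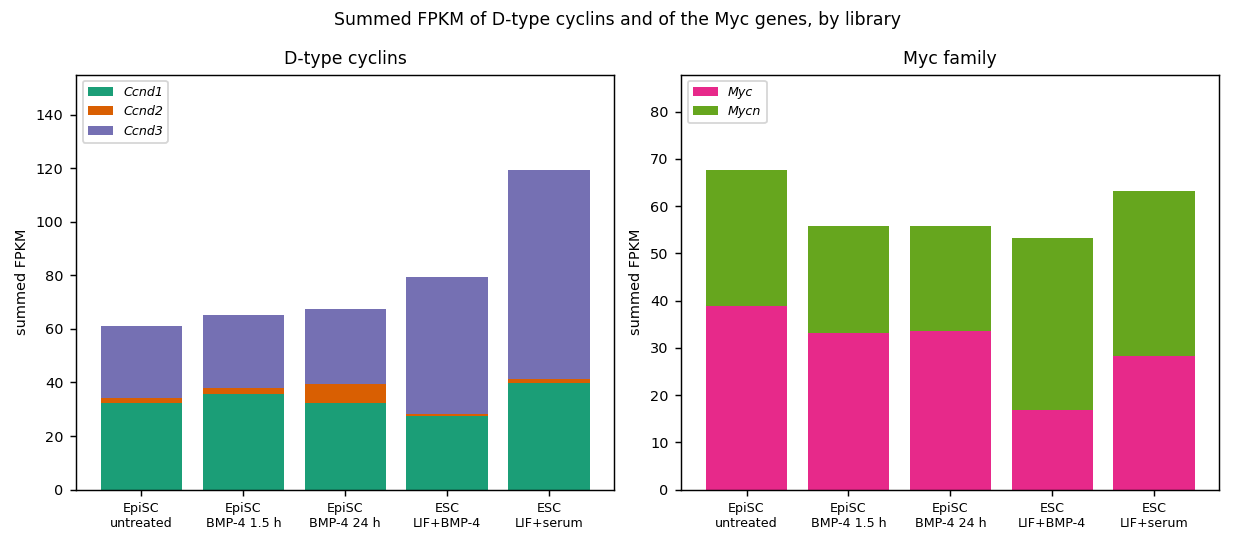
Summed FPKM of the D-type cyclins (left) and of the Myc genes (right) in the 5 libraries, as stacked bars from 0 split by gene. The D-type cyclins sum to 61.1 to 67.4 FPKM in EpiSCs and 79.2 to 119 FPKM in ESCs, with Ccnd3 the larger part in ESCs, and Myc is the larger part of the Myc genes in EpiSCs.

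Counted over the members, untreated EpiSCs were called higher than serum ESCs for 2 of 44 (E2f6 and Rb1), where 11.6% of all genes compared were, and lower for 4 of 44 (E2f2, Ccnd3, Rbl2 and Cdt1), where 9.55% were. Against BMP-4 ESCs they were called higher for 6 of 44 (E2f6, Ccne2, Rb1, Cdk6, Myc and E2f5), where 11.0% of all genes were, and lower for 4 of 44 (E2f2, Cdkn2a, Rbl2 and Cdt1), where 10.0% were. No share of members called was far above the share of all genes. Both comparisons share the untreated EpiSC library. The median difference of the 44 members was -0.28 against either ESC library, where that of all genes was -0.01 against serum ESCs and 0.00 against BMP-4 ESCs. The deposited bounds overlapped for every member called. Over all genes, bounds were apart against serum ESCs for 295 of 1272 called higher and 313 of 1051 called lower. Against BMP-4 ESCs they were apart for 263 of 1209 and 342 of 1104. With a pseudocount of 5 FPKM in place of 1, 4 of the 18 member calls over all 6 comparisons stayed at 2-fold or more.

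Small differences in 1 direction were more frequent than 2-fold ones. All 3 EpiSC libraries lay below both ESC libraries for 24 of 44 members (54.5%), against 35.7% of all genes, and above them for 11 of 44 (25%), against 34.9% of all genes. The 24 included 8 of 9 licensing genes, all 4 mitotic cyclins with Cdk1 and 5 of 8 regulators of mitotic entry. The 11 were Ccnd2, Ccne2, Cdk6, E2f3, E2f5, E2f6, E2f7, Rb1, Cdc25c, Aurkb and Myc. At 2-fold or more between the nearest libraries there was 1 member above (E2f6), where 7.21% of all genes were, and 1 below (E2f2), where 6.62% were. Markers of other cell types moved with state too: the 6 primitive endoderm markers summed to 8.29 to 21.0 FPKM in EpiSCs and 1.20 to 1.37 FPKM in ESCs, and the 6 fibroblast markers to 25.6 to 28.0 FPKM in EpiSCs and 4.69 to 6.07 FPKM in ESCs. In untreated EpiSCs, Foxa2 gave 13.2 FPKM of the primitive endoderm sum. Sox7 of that list went the other way, with 0 to 0.0275 FPKM in EpiSCs and 0.473 and 0.532 FPKM in ESCs. Most of the fibroblast sum in EpiSCs was Twist1, with 20.9 to 21.6 FPKM in EpiSCs and 1.53 to 1.99 FPKM in ESCs, while the 3 collagen genes were below 1 FPKM in every library and Thy1 overlapped between states. The 6 neural markers went the other way, with sums of 17.3 to 25.3 FPKM in EpiSCs and 45.2 to 77.6 FPKM in ESCs, mostly Tubb3. Depth moved with state as well, since the EpiSC libraries were the 3 deeper ones, and the part of any of these in the splits was not tested. The sum of FPKM was also lower in EpiSCs, at 579449 to 585088, than in ESCs, at 608843 to 638146, and with every library set to the same sum the counts became 22 below, where 29.8% of all genes were, and 14 above, where 41.0% were. The 22 held 8 licensing genes, 4 mitotic cyclins with Cdk1 and 3 regulators of mitotic entry. On that scale Cdk4, Cdkn1b and E2f4 were also above both ESC values in all EpiSC libraries.

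**Figure D4:**
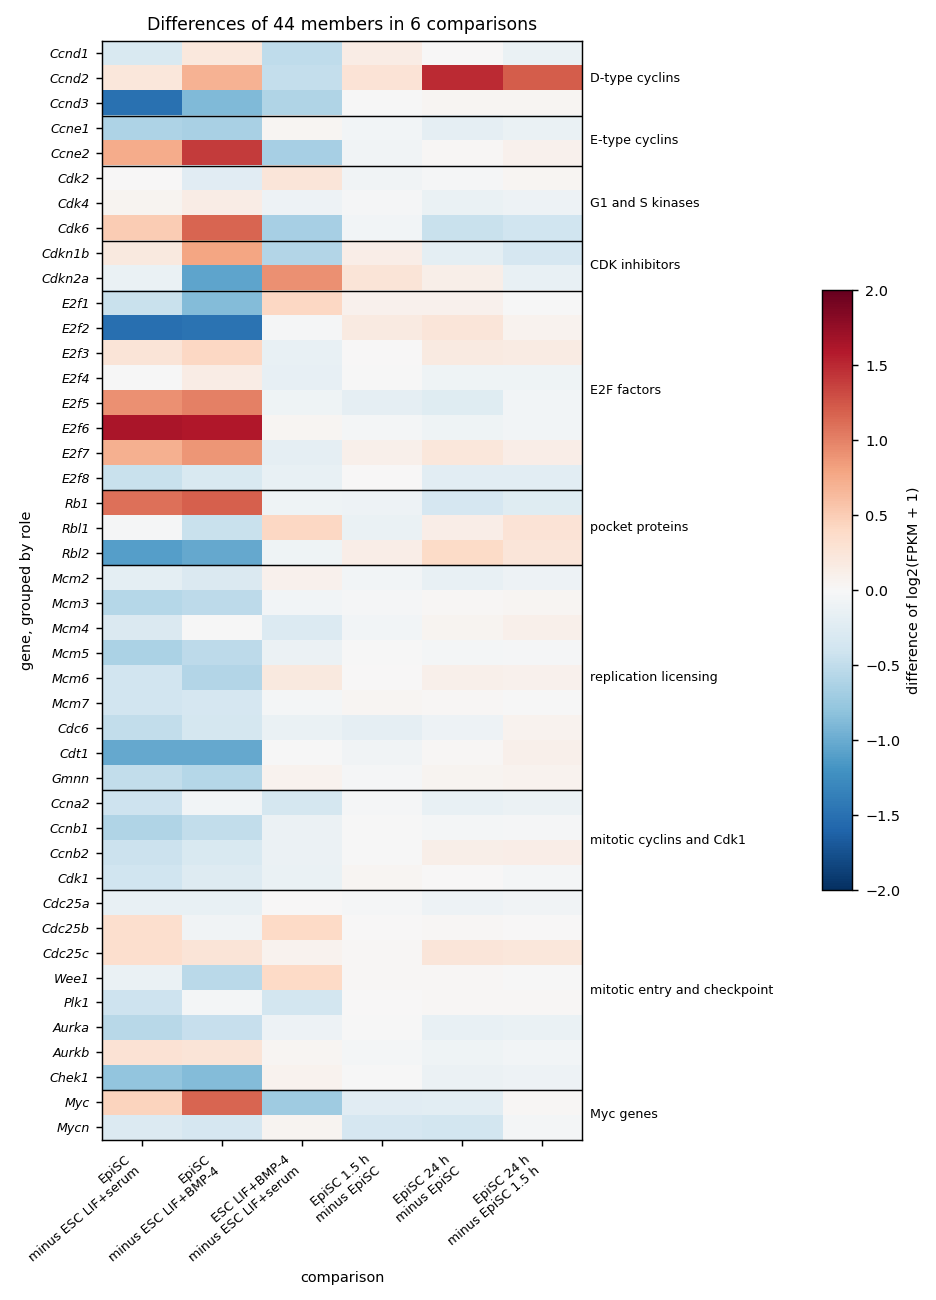
Differences of log2(FPKM + 1) (colour scale) for the 44 members compared (grouped by role) in each of the 6 comparisons, first group minus second. The comparisons of EpiSCs with ESCs show differences from -1.50 for E2f2 to 1.64 for E2f6, and those after BMP-4 in EpiSCs stay within -0.45 and 0.39 apart from Ccnd2.

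The ESC libraries differed from each other less. BMP-4 ESCs had 0 of 44 members called higher than serum ESCs, where 2.61% of all genes were, and 0 called lower, where 1.28% were. The furthest members were Cdkn2a (log2 0.92), Myc (-0.71), Cdk6 (-0.66), Ccne2 (-0.66) and Ccnd3 (-0.61). All 3 D-type cyclins were on the lower side with BMP-4, with differences from -0.61 to -0.48, and so was Cdkn1b (-0.59). The median over members was -0.09, beside -0.02 for all genes.

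BMP-4 in EpiSCs left nearly all members, like nearly all genes, within 2-fold of their level in untreated cells. After 1.5 h, 0 of 44 were called higher than in untreated EpiSCs, where 0.236% of all genes were, and 0 were called lower, where 0.182% were. The members ran from -0.33 for Mycn to 0.28 for Ccnd2, and the median absolute difference was 0.0348, beside 0.0747 over all genes. After 24 h, 1 of 44 was called higher than in untreated EpiSCs (Ccnd2), where 0.654% of all genes were, and 0 were called lower, where 0.527% were. The next were Cdk6 (-0.45), Rbl2 (0.39), Mycn (-0.36) and Rb1 (-0.34). At 24 h the median absolute difference of members was 0.111, beside 0.112 over all genes, so members moved about as much as other genes. After 24 h against 1.5 h, again 1 of 44 was called higher (Ccnd2), where 0.609% of all genes were, and 0 were called lower, where 0.427% were. Cdk6 (-0.40) and Cdkn1b (-0.33) were the furthest on the lower side. The 3 comparisons share libraries in pairs.

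Myc and Mycn were both lower at 1.5 h, with log2 differences of -0.22 and -0.33 from untreated EpiSCs, and at 24 h, with -0.20 and -0.36, none of them called. The licensing genes moved little, with differences between -0.15 and 0.10 at 24 h, and the mitotic cyclins with Cdk1 stayed between -0.15 and 0.12. The G1 inhibitor Cdkn1b had 0.13 at 1.5 h and -0.20 at 24 h.

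**Figure D5:**
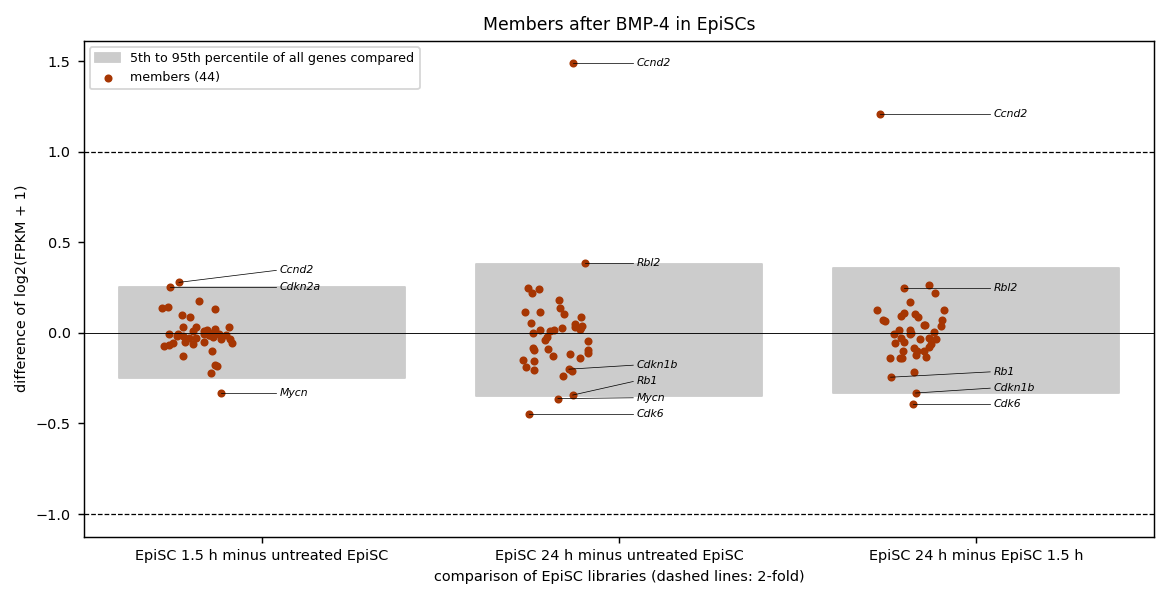
Differences of log2(FPKM + 1) (vertical axis) for the 44 members (points) in the 3 comparisons of EpiSC libraries, over grey bands from the 5th to the 95th percentile of all genes compared. By definition the bands leave out 5% of all genes on each side. Outside them lie 3 members (6.82%) at 1.5 h, 4 (9.09%) at 24 h and 2 (4.55%) at 24 h against 1.5 h. Ccnd2 alone passes the 2-fold line.

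Related genes that are not members were listed by role to set the members in their pathway. Of 41 further genes of S phase and replication, untreated EpiSCs had 0 called higher than serum ESCs and 2 lower (Orc1 and Pola1), with a median difference of -0.34, and all EpiSC libraries were below both ESC libraries for 28. Of 34 genes of mitosis and the spindle checkpoint, 0 were higher and 3 were lower (Pttg1, Ccnb1ip1 and Espl1), with a median of -0.47, and 25 were below in all libraries. Of all genes, 11.6% were called higher in untreated EpiSCs than in serum ESCs, 9.55% were called lower, and 35.7% were below in all libraries. With libraries set to the same sum, 24 of the 41 and 24 of the 34 were below, where 29.8% of all genes were. On the deposited scale the lean was not confined to these lists. There, 11 of 15 DNA damage checkpoint genes, 6 of 10 Myc partners and 15 of 28 Myc targets were also below in all libraries. At the same sum these counts became 9 of 15, 3 of 10 and 15 of 28. The Myc partners (30%) were then level with all genes (29.8%). Of 15 genes of the DNA damage checkpoint, 1 was higher (Gadd45g, listed at 0 in serum ESCs) and 2 were lower (Atr and Brca1). Against BMP-4 ESCs, 0 of the 41 replication genes were higher and 1 lower (Orc1), 0 of the 34 mitotic genes were higher and 1 lower (Pttg1), and 1 of the 15 checkpoint genes was higher (Mdm2) and 3 lower (Gadd45a, Brca1 and Atr). There, 11.0% of all genes were called higher and 10.0% lower.

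Some regulators outside the member list differed by more than any member. Of 25 other inhibitors and G1 regulators listed, 23 averaged 1 FPKM or more, and of these 4 were higher in untreated EpiSCs than in serum ESCs and 1 was lower. The shares of all genes were 11.6% and 9.55%. Cdkn1c (p57), a Cip/Kip inhibitor, had 263 FPKM in untreated EpiSCs, 291 after 1.5 h and 379 after 24 h of BMP-4, against 40.2 in BMP-4 ESCs and 46.5 in serum ESCs, with bounds apart between untreated EpiSCs and either ESC library. Cdkn1a (p21), of the same group, had 33.3 FPKM in untreated EpiSCs, 33.2 after 1.5 h and 39.4 after 24 h of BMP-4, against 4.67 in BMP-4 ESCs and 7.36 in serum ESCs. Its bounds in untreated EpiSCs overlapped those in serum ESCs and were apart from those in BMP-4 ESCs. Both inhibitors were higher in all EpiSC libraries than in both ESC libraries, 5.56-fold and 4.10-fold between untreated EpiSCs and serum ESCs, unlike their relative Cdkn1b. Mybl2, an activator of mitotic genes with the MuvB complex, had 18.7 FPKM in untreated EpiSCs, 20.4 after 1.5 h and 19.1 after 24 h of BMP-4, against 182 in BMP-4 ESCs and 197 in serum ESCs, 10.0-fold lower in untreated EpiSCs than in serum ESCs. Ccng1 and Ccng2 were the other 2 called higher. Against BMP-4 ESCs, 3 of the 23 were higher (Cdkn1c, Cdkn1a and Ccng1) and 2 were lower (Mybl2 and Tfdp2), where 11.0% and 10.0% of all genes were.

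Of 10 partners of Myc, Mxd4, which competes with Myc for Max, was the 1 called higher in untreated EpiSCs than in serum ESCs, with 26.8 FPKM in untreated EpiSCs, 24.9 after 1.5 h and 25.5 after 24 h of BMP-4, against 4.05 in BMP-4 ESCs and 1.45 in serum ESCs. Of 28 growth genes known as Myc targets, 1 was higher (Ldha, lactate dehydrogenase), with 1073 FPKM in untreated EpiSCs and 490.1 FPKM in serum ESCs, and 0 were lower, with a median of -0.21. Against BMP-4 ESCs, 1 partner was higher (Mxd4), 1 was lower (Mxi1) and 0 of the 28 targets were called. The shares of all genes called higher and lower were 11.6% and 9.55% against serum ESCs, and 11.0% and 10.0% against BMP-4 ESCs. After 24 h of BMP-4, 0 of these 28 were called in either direction, but 27 of 28 had a lower value than in untreated EpiSCs, where 50.2% of all genes did, with a median difference of -0.13 beside -0.00 for all genes and a range from -0.39 to 0.12. The count was 27 under both rescalings as well, where 45.7% (median ratio) and 48.2% (same sum) of all genes were lower. After 1.5 h, 17 of 28 had a lower value, where 51.9% of all genes did, with a median of -0.01. None of the 6 further lists had a gene called after 1.5 h or after 24 h of BMP-4, against untreated EpiSCs. Of all genes, 0.236% were called higher and 0.182% lower after 1.5 h, and 0.654% and 0.527% after 24 h.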

How the data were processed

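The authors deposited 1 table of FPKM per gene with a lower and an upper bound and a status for each of 5 libraries, per the file headers. Per the labels' protocols, poly(A) RNA was selected, fragmented and made into directional libraries. TopHat, Cufflinks (written as version 2.0.13), Picard and SAMtools and the mm9 build are named, per the submitters' processing notes, while the annotation, the filters and any scaling were not given in the sources used here. Values were used as deposited, with no rescaling. All 47 members had the status OK in every library, and a gene with another status (8 genes) was left out of any comparison using that library.

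A difference is log2(FPKM + 1) of the first library minus that of the second, taken where the 5 libraries averaged 1 FPKM or more, and 2-fold is the limit for a call. With 1 library per group no test was possible, and depth was estimated only roughly, from the steps between low values. The members, the gene lists and the rule for naming genes were chosen with earlier results of these data known. That rule gave every library's value for G1 cyclins, kinases, inhibitors, Myc genes and called members, for up to 3 other members per role by mean FPKM, and named up to 4 called genes per further list and direction. The values of the remaining members were added to account for all, after they were seen. Positions are those of the table in mm9, written from 1. Promoters came from RefSeq (GRCm38.p6), matched by symbol, and similar transcripts from GENCODE by BLAST 2.17.0 (at least 95% identity over 100 bases). Python 3.11.15 with pandas 2.3.3 and NumPy 2.4.6 was used. The code that counts calls was checked on a copied library with set changes and no noise. That check does not cover low genes or the spread between cultures. Alternatives were pseudocounts of 0.1 and 5, a mean of at least 5 FPKM, rescaling by the median ratio or to the same sum, leaving out each library in turn, and the deposited bounds.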

Additional observations from a re-analysis of the deposited data

How the results depend on the processing

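No paired analysis was possible because a single library stood for each group. The 18 differences of members called kept their direction under both pseudocounts and both rescalings, and 18 stayed 2-fold apart with a pseudocount of 0.1 FPKM, 16 with the median ratio, 15 with the same sum and 4 with a pseudocount of 5 FPKM. Rescaling to the same sum shifted the median of all genes by 0.11 between EpiSCs and serum ESCs. With a pseudocount of 5 FPKM, members called in untreated EpiSCs against serum ESCs were 1 higher (E2f6) and 1 lower (Ccnd3), and against BMP-4 ESCs they were 2 higher (E2f6 and Myc) and 0 lower. With a mean of at least 5 FPKM they were 1 higher and 2 lower (Ccnd3 and Cdt1) against serum ESCs, and 1 lower (Cdt1) against BMP-4 ESCs, where rescaling to the same sum gave 2 lower (Cdkn2a and E2f2). Ccnd2, whose mean was under 5 FPKM, was lost under either setting, so 0 members were called higher at 24 h against untreated EpiSCs or against 1.5 h. A pseudocount of 0.1 FPKM called 1 member (Cdkn2a) higher in BMP-4 ESCs than in serum ESCs, raised those called higher in untreated EpiSCs against BMP-4 ESCs to 8 (Ccnd2 and E2f7 joined), and put 3 members (E2f2, Rbl2 and Cdt1) 2-fold below in all EpiSC libraries. Leaving out each library in turn gave 11 to 15 members above and 25 to 27 below by state, and at 2-fold 1 to 2 above (Ccne2 joined without serum ESCs) and 1 to 2 below (Cdt1 joined without the 24 h library, Ccnd3 without BMP-4 ESCs). Rbl2 left the comparison without either ESC library, since its mean over the remaining libraries was under 1 FPKM.

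The shares of gene families are loose within the deposited bounds. With the named gene at its lower bound and the others at their upper bounds, and then the reverse, Ccnd1 held 21.3% to 94.3% of D-type cyclin FPKM in untreated EpiSCs, 23.2% to 94.8% after 1.5 h and 18.8% to 91.0% after 24 h. Ccnd3 held 24.9% to 87.5% in BMP-4 ESCs and 31.2% to 86.8% in serum ESCs. Myc held 26.7% to 84.0% of Myc and Mycn in untreated EpiSCs, 26.6% to 86.2% after 1.5 h and 28.1% to 86.6% after 24 h. Mycn held 35.5% to 92.1% in BMP-4 ESCs and 24.5% to 84.2% in serum ESCs. Rb1 held 6.23% to 87.7% of pocket protein FPKM in untreated EpiSCs and 0% to 79.3% in serum ESCs. E2f6 held 5.99% to 40.7% of E2F FPKM in untreated EpiSCs and 1.33% to 20.2% in serum ESCs. Depth limits the low members most, since the median gene at 1 to 5 FPKM in untreated EpiSCs had an upper bound 111% above its value.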
